A study of Mus musculus with 6 samples.

Results

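Retinoic acid pathway genes were examined through the accessible chromatin around 10 genes, namely the synthesis genes Rdh10, Aldh1a2 and Aldh1a3, the breakdown genes Cyp26a1, Cyp26b1 and Cyp26c1, the receptor genes Rara, Rarb and Rarg, and the carrier gene Crabp2. ATAC-seq peaks were chosen by position only, with a midpoint inside one of these genes or within 200 kb of its start, and 210 of the 61954 deposited peaks met this rule. ATAC-seq marks open chromatin by the places where the transposase Tn5 inserts sequencing adapters. The libraries came from distal forelimb buds at E11.5, on a mixed C57Bl/6 x 129 background, 2 from wild-type (WT) embryos and 2 from Hox13-/- embryos. The mutants lack both Hoxa13 and Hoxd13, through the conventional null alleles Hoxa13Str and Hoxd13lacZ, which are not limited to the limb. The 50000 cells behind a library were drawn from both forelimb buds of 1 embryo, pooled, so a replicate is an embryo. Such tissue holds more than 1 cell type, and a smaller share of cells with an open site cannot be told apart from less opening in each cell.

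Retinoic acid is a small signal made from vitamin A in steps that RDH10 begins, by oxidising retinol to retinaldehyde, and that the aldehyde dehydrogenases ALDH1A2 and ALDH1A3 complete. The CYP26 enzymes oxidise and inactivate it, CRABP2 carries it to the nucleus, and the receptors RARA, RARB and RARG bind DNA with RXR partners at paired half-sites called retinoic acid response elements. In the limb bud the flank is the known source and the distal mesenchyme, where Cyp26b1 is expressed, is the known place of breakdown, and a low distal level of the signal is associated with distal identity. The table holds accessibility and no RNA, so nothing here measures the expression of these genes or the level of the signal.

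Sequences are shown for 5 of the most changed peaks of the synthesis, breakdown and receptor genes, up to 300 bases around the midpoint. Whether the genotype differences described below depend on these sequences was not tested. The sequences were read from the GRCm38 (mm10) genome on the + strand. Capitals mark matches on either strand to the HOX13 heptamers CAATAAA and TCGTAAA or to the retinoic acid receptor half-sites AGGTCA or GGGTCA or AGTTCA or GGTTCA. The peaks are named by the distance of their midpoint from the gene start in kb, negative upstream. The windows are chr1:16268469-16268768 and chr1:16293321-16293620 for Rdh10, chr6:84410142-84410441 for Cyp26b1, chr11:98963601-98963900 for Rara and chr14:16733691-16733990 for Rarb.
Rdh10 +162.8 kb, lower in Hox13-/-: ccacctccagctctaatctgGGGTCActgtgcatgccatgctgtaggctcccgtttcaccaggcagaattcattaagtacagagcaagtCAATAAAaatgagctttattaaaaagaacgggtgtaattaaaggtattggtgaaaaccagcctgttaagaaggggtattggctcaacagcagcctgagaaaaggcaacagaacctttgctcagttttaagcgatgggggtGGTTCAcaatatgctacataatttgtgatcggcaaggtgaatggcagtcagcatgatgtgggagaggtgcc
Rdh10 +187.7 kb, higher: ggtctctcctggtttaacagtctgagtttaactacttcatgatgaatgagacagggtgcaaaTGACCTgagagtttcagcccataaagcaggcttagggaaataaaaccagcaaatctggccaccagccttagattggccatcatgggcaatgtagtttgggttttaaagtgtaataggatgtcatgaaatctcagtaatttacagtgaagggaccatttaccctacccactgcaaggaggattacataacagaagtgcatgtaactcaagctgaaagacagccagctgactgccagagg
Cyp26b1 +183.6 kb, higher: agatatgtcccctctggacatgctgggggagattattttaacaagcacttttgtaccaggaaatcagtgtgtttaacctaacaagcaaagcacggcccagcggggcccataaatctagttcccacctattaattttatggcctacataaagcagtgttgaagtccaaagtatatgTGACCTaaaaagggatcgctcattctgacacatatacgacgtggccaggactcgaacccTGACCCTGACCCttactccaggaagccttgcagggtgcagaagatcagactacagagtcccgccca
Rara +35.9 kb, lower: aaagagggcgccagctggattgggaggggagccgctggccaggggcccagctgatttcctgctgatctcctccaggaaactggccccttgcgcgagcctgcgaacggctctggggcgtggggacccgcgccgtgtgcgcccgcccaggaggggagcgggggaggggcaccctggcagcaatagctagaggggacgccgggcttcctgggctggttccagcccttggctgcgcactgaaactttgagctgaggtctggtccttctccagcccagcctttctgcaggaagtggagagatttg
Rarb +85.3 kb, higher: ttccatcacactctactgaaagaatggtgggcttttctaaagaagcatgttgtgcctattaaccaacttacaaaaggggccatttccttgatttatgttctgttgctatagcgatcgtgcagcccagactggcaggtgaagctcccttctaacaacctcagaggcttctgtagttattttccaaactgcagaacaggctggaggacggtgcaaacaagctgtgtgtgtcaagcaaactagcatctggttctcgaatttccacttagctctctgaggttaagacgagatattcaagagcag
Of these windows only that of Rdh10 at +162.8 kb held the HOX13 heptamer CAATAAA, and it also held 2 half-sites. Windows of this size around all 61954 peaks held a HOX13 heptamer in 6.04% and a half-site in 31.5%.

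The start of Aldh1a2 is shown because it was the only gene 5' end of the 10 with a called peak over it. The stretch chr9:71215570-71215788 on the + strand runs from the first base of the peak to the last base before the first annotated exon, and it held no match to either motif.
Aldh1a2 start, lower: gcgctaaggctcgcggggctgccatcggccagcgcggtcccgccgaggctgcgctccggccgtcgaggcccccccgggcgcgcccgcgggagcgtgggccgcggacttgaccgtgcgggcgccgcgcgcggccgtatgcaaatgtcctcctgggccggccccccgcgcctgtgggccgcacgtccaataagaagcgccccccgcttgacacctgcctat
A pair of 17-base repeats is shown because direct repeats of half-sites 5 bases apart (DR5) are the classical retinoic acid response element. At Rarb the repeat lies at chr14:16575513-16575529 on the - strand, the strand of the gene, 14 to 30 bases past an annotated start and within the 5' UTR. At Cyp26a1 it lies at chr19:37697776-37697792 on the - strand, opposite to the gene, from -22 to -6 of its start.
Rarb DR5: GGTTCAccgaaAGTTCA
Cyp26a1 DR5: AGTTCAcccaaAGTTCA
The capitals are the half-sites. In the RefSeq promoter table, which covered 7 of the 10 genes with 11 promoters (build GRCm38.p6, around each annotated start), these were the only DR5 matches among those genes, and 32 of all 32851 promoters (0.0974%) held one. The Rarb repeat lay in a deposited peak. No deposited peak lay within 1 kb of the Cyp26a1 repeat, the nearest being 4.6 kb from the Cyp26a1 start. A match is a description of letters and not of a bound site.

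Around the 10 genes, accessibility was lower in Hox13-/- at 19 peaks and higher at 19, with 172 not called. A call is an adjusted p under 0.05 from limma across all peaks. Lower peaks made up 9.05% of the 210 against 8.31% of all peaks, and higher peaks 9.05% against 11.4% of all peaks, so both shares were near the background. The median difference was -0.05 on the log2 scale of the deposited rLog values, against -0.01 over all peaks. At a fold beyond 1.5 there were 2 lower peaks (all peaks 1.56%) and 2 higher peaks (3.33%), and no peak of these genes passed a fold of 2 (0.224% and 0.313%), the differences reaching from -0.68 to 0.76. The libraries of the genotypes did not overlap at 124 of the 210 peaks (59.0%), and at 59.2% of all peaks. After median centring of the libraries the split was 22 lower and 15 higher, and over all peaks it was 6811 lower and 6017 higher, where the uncentred values gave 5146 and 7040. A fit with 1 library left out has a single library of 1 genotype, which is assumed to vary like those of the other genotype. Lower calls then numbered 13 (6.19%, all peaks 5.73%) without WT library 1, 9 (4.29%, all peaks 5.63%) without WT library 2, 13 (6.19%, all peaks 5.02%) without Hox13-/- library 1 and 9 (4.29%, all peaks 4.62%) without Hox13-/- library 2. Higher calls numbered 12 (5.71%) without WT library 1 (all peaks 7.51%), WT library 2 (8.08%) or Hox13-/- library 1 (7.85%), and 13 (6.19%, all peaks 8.06%) without Hox13-/- library 2.

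**Figure D1:**
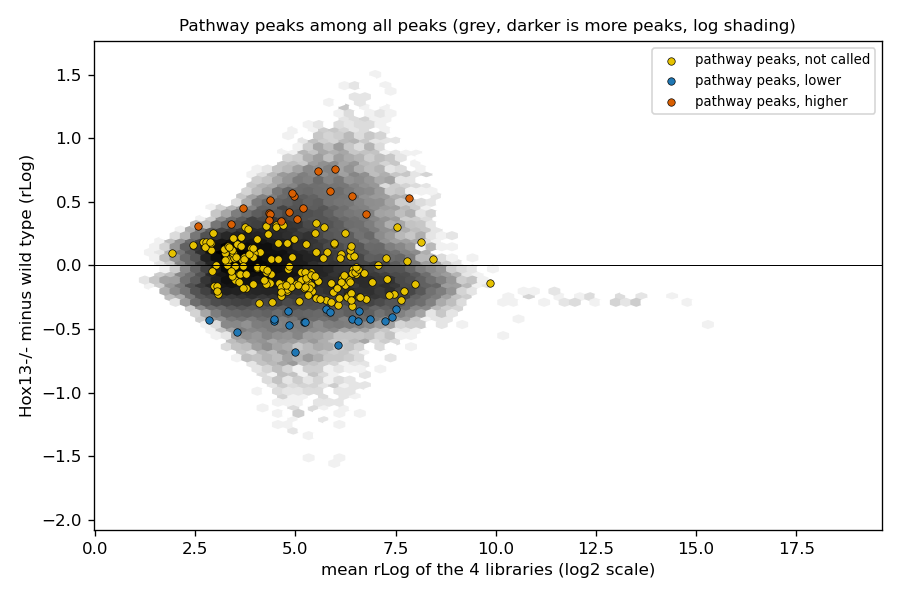
Mean accessibility (x axis, rLog, log2 scale) against the Hox13-/- minus wild type difference (y axis, rLog) for all 61954 peaks in grey and for the 210 peaks of the retinoic acid pathway genes in colour. The coloured points lie inside the grey cloud, between -0.68 and 0.76.

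By role, the synthesis genes had 6 lower and 7 higher peaks of 45, the breakdown genes 2 lower and 5 higher of 35, the receptor genes 9 lower and 6 higher of 97, and the carrier gene 2 lower and 1 higher of 33. The shares were 13.3% lower and 15.6% higher for synthesis, 5.71% and 14.3% for breakdown, 9.28% and 6.19% for receptors and 6.06% and 3.03% for Crabp2, against 8.31% and 11.4% of all peaks. These counts are small, and with 1 library left out they ranged from 3 to 6 lower and 4 to 6 higher for synthesis, 0 to 2 lower and 2 to 4 higher for breakdown, 3 to 6 lower and 3 higher in each case for receptors, and 0 to 2 lower and 1 higher in each case for Crabp2. By limma the breakdown count of 0 was that without Hox13-/- library 1, where 2 peaks were lower at an unadjusted p under 0.05, and the Crabp2 count of 0 that without WT library 2, where 1 peak was. Differences between the roles were not tested.

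**Figure D2:**
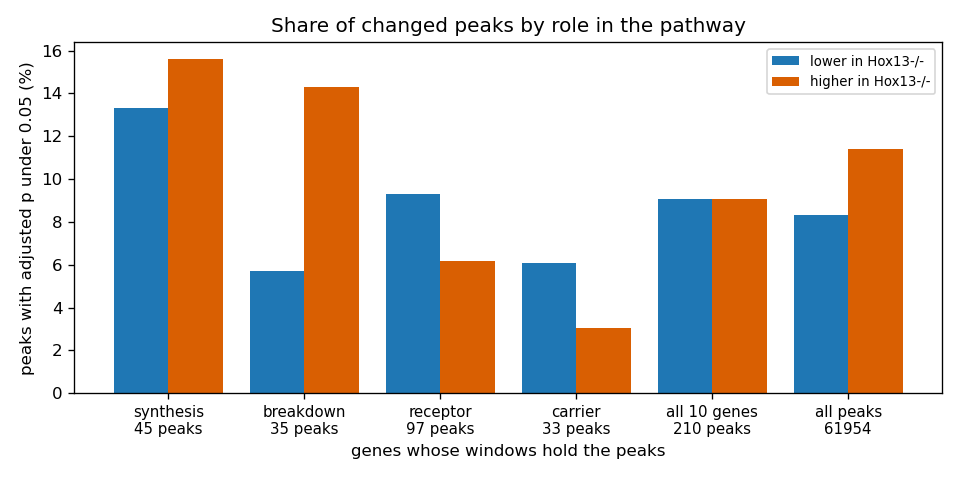
Bars give the percent of peaks (y axis) called lower (blue) or higher (orange) in Hox13-/- for the genes of each role, for all 10 genes and for all peaks. The synthesis genes stand at 13.3% and 15.6%, and all 61954 peaks at 8.31% and 11.4%.

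Rdh10, the first enzyme of synthesis, had 17 peaks, 2 lower and 5 higher in Hox13-/-. The peak at +162.8 kb (chr1:16268446-16268790), inside the neighbouring gene Stau2, stood at 5.22 and 5.43 in the WT libraries and at 4.65 and 4.63 in the Hox13-/- libraries. The groups did not overlap, and this was the largest decrease among the 210 peaks, -0.68 ± 0.13 (SE, adjusted p = 5.71e-06). It had been called a peak in both WT libraries and in neither Hox13-/- library. The peak at +187.7 kb (chr1:16293235-16293705), also inside Stau2, stood at 5.62 and 5.60 in WT and at 6.45 and 6.29 in Hox13-/-. This was the largest increase of the 210, 0.76 ± 0.13 (SE, adjusted p = 2.3e-07), a 1.69-fold difference on the rLog scale. So the largest changes in both directions lay 24.9 kb apart on the same side of Rdh10, and both kept their calls whichever library was left out. For both, the nearest protein-coding gene 5' end was that of Rdh10.

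Next in size by the naming rule were 2 peaks whose calls rested on single libraries. The peak at +67.6 kb stood at 4.62 and 4.66 in WT and at 5.04 and 5.37 in Hox13-/-, a difference of 0.57 (adjusted p = 0.000275) that was lost without Hox13-/- library 2 (0.0818). The peak at -1.5 kb, inside the ribosomal protein gene Rpl7 and 0.3 kb from its start, stood at 4.67 and 5.32 in WT and at 4.69 and 4.58 in Hox13-/-. Here the groups overlapped, and the difference of -0.36 (adjusted p = 0.0344) became -0.03 without WT library 2 (0.919), and was also lost without Hox13-/- library 1 (0.0663) or 2 (0.219) and among the upper 75% of peaks by signal (0.0523). No peak at the start was called. The strongest within 1 kb, at -0.8 kb, was nearest to the start of Rpl7, 0.3 kb away. It stood at 7.13 and 6.99 in WT and at 7.11 and 7.01 in Hox13-/- (adjusted p = 0.9997). The peak over the Rdh10 start itself stood at 6.67 and 6.37 in WT and at 6.66 and 6.37 in Hox13-/- (-0.01, adjusted p = 0.96).

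**Figure D3:**
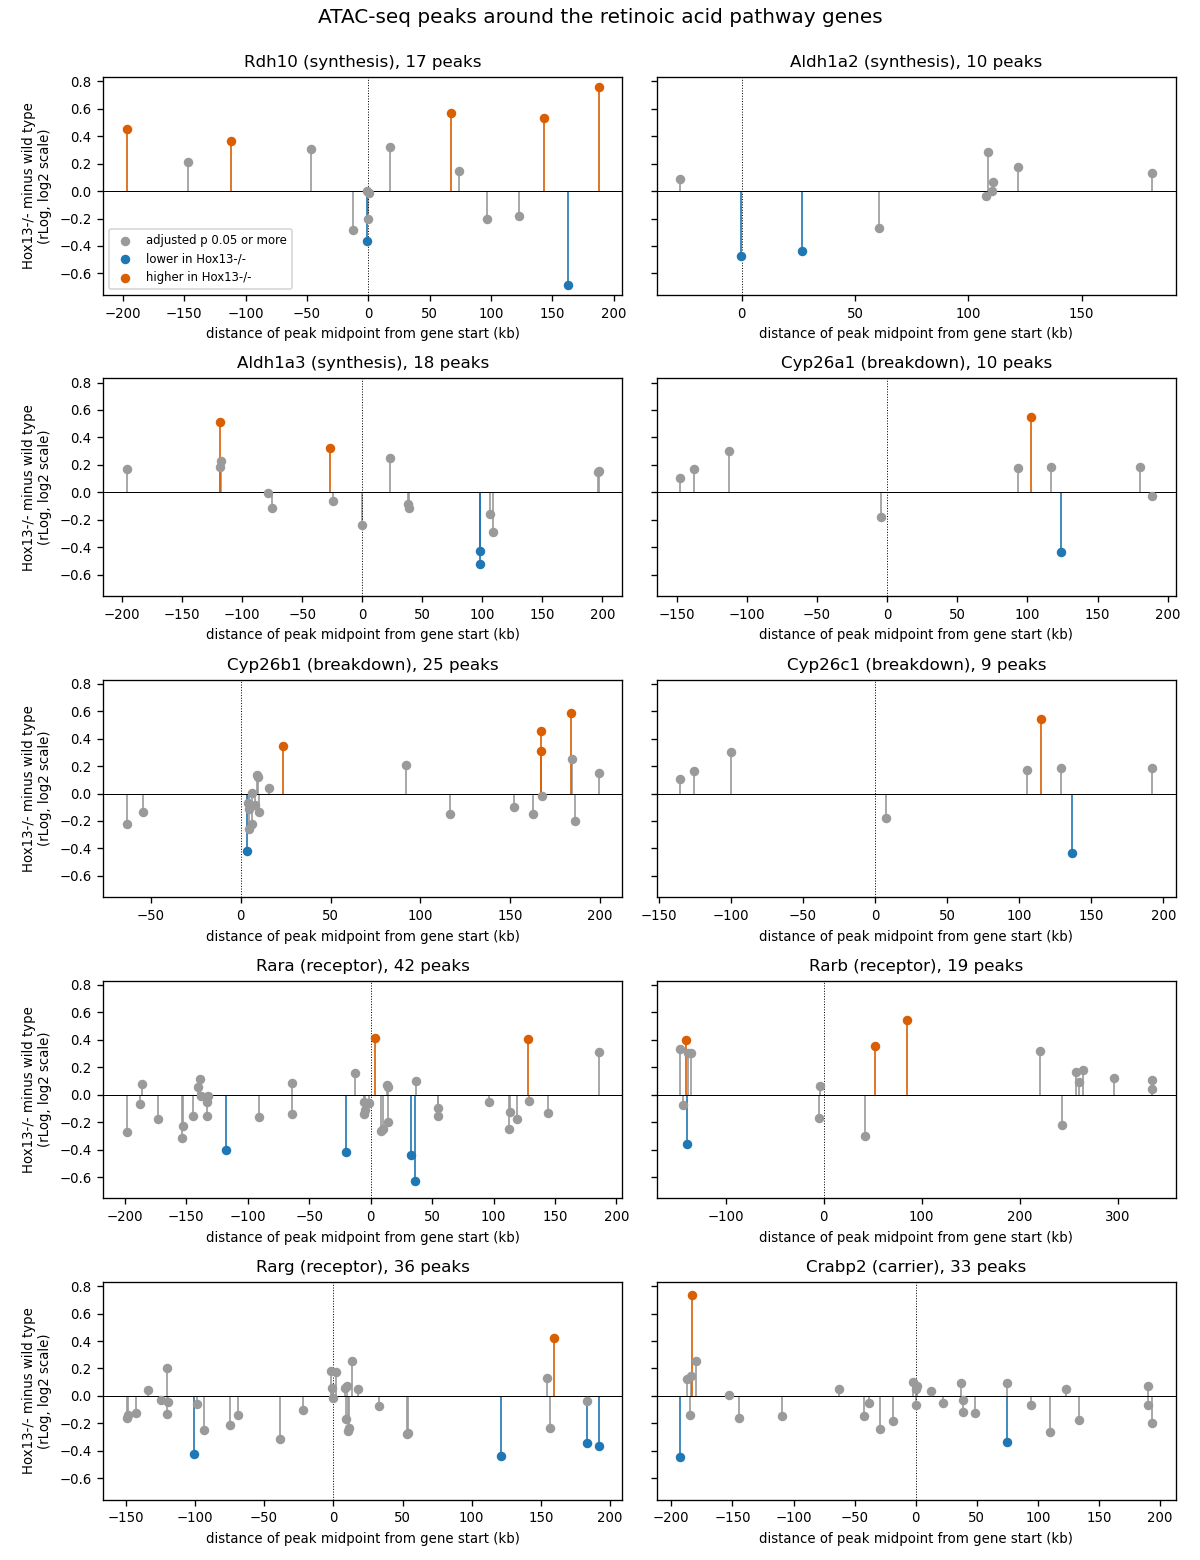
Each point is a peak, placed by its distance from the gene start in kb (x axis) and its Hox13-/- minus wild type difference on the rLog scale (y axis), in 1 panel per gene, with lower peaks in blue and higher peaks in orange. Rdh10 shows 5 higher and 2 lower peaks and Rara 2 higher and 4 lower, and no panel holds calls of a single direction except that of Aldh1a2.

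Aldh1a2, the main retinoic acid synthesising enzyme of the embryo, had 10 peaks, 2 of them lower and 0 higher by limma (1 higher at an unadjusted p under 0.05). The peak over its start (chr9:71215570-71215898), whose sequence up to the first exon is given above, stood at 5.20 and 4.97 in WT and at 4.67 and 4.56 in Hox13-/-. The groups did not overlap, and the difference was -0.47 ± 0.13 (SE, adjusted p = 0.00346). It was called in both WT libraries and in neither mutant library. A peak in an intron at +26.5 kb (chr9:71242003-71242538), with 1 HOX13 heptamer, stood at 6.82 and 6.74 in WT and at 6.39 and 6.31 in Hox13-/-, a difference of -0.43 ± 0.13 (SE, adjusted p = 0.00637). Both calls depended on single libraries. Without WT library 1 the adjusted p was 0.137 at the start and 0.0634 in the intron, and without Hox13-/- library 2 it was 0.071 and 0.084. The other 8 peaks lay between -0.27 and 0.28.

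Aldh1a3, which encodes a related dehydrogenase, had 18 peaks, 2 lower and 2 higher. The peak at -118.3 kb (chr7:66545661-66545957) stood at 4.11 and 4.11 in WT and at 4.63 and 4.62 in Hox13-/-. It was higher by 0.52 ± 0.13 (SE, adjusted p = 0.001), with nearly equal replicates in each genotype, and it was called a peak in the mutant libraries only. The peak at +97.7 kb (chr7:66329757-66329924), inside Lrrk1, stood at 3.78 and 3.84 in WT and at 3.25 and 3.32 in Hox13-/-, a difference of -0.52 ± 0.12 (SE, adjusted p = 0.000296). These calls held with any library left out. A neighbouring peak at +97.9 kb, with a HOX13 heptamer, stood at 2.90 and 3.20 in WT and at 2.60 and 2.66 in Hox13-/- (-0.43, adjusted p = 0.00129, and 0.127 without WT library 2). The peak at -26.8 kb stood at 3.23 and 3.25 in WT and at 3.63 and 3.49 in Hox13-/- (0.32, adjusted p = 0.0386), and its call was lost without WT library 1 (0.156), WT library 2 (0.118) or Hox13-/- library 1 (0.237), and after centring each library on its median (0.0689). The start of Aldh1a3 stood at 4.75 and 4.77 in WT and at 4.57 and 4.48 in Hox13-/- and was not called (-0.24, adjusted p = 0.192).

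Cyp26b1, the CYP26 gene known from the distal limb, had 25 peaks, 1 lower and 4 higher. For all 25 the nearest protein-coding gene 5' end was its own. The higher peaks lay between +23.6 and +183.6 kb, past the end of the gene, and the lower one in an intron. The peak at +183.6 kb (chr6:84410042-84410541) stood at 5.65 and 5.51 in WT and at 6.13 and 6.20 in Hox13-/-. It was higher by 0.58 ± 0.13 (SE, adjusted p = 0.000129), held with any library left out, and was called a peak in the 2 mutant libraries only. The peak at +167.2 kb stood at 3.47 and 3.43 in WT and at 4.00 and 3.82 in Hox13-/- (0.45, adjusted p = 0.00269, and 0.0791 without Hox13-/- library 1). The intron peak at +3.6 kb (chr6:84590093-84590577) stood at 6.50 and 6.74 in WT and at 6.12 and 6.28 in Hox13-/-. The difference was -0.42 (adjusted p = 0.00941), a call lost without WT library 2 (0.193) or Hox13-/- library 1 (0.159). No peak lay over the 5' end of Cyp26b1, the nearest being 3.3 kb away, and 4 peaks lay near internal annotated starts. The strongest of these, at +4.7 kb, stood at 5.69 and 5.58 in WT and at 5.33 and 5.43 in Hox13-/- and was not called (-0.26, adjusted p = 0.157).

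Cyp26a1 and Cyp26c1 are neighbours on chromosome 19, and 9 peaks counted for both. Cyp26a1 had 10 peaks and Cyp26c1 9, with the same 1 lower and 1 higher peak. The higher peak, at +102.6 kb of Cyp26a1 (chr19:37800204-37800528), stood at 4.63 and 4.77 in WT and at 5.39 and 5.10 in Hox13-/- (0.55 ± 0.13, SE, adjusted p = 0.000489). The groups did not overlap, and it was called a peak in the 2 mutant libraries only. The call was lost without Hox13-/- library 1 (0.0789). No deposited peak lay within 1 kb of either start. The nearest was 4.6 kb from the Cyp26a1 start and 7.5 kb from that of Cyp26c1, and stood at 3.84 and 3.88 in WT and at 3.72 and 3.64 in Hox13-/- (-0.18, adjusted p = 0.318).

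Rara, the receptor gene with the most peaks, had 42, of which 4 were lower and 2 higher. For 10 of the 42 the nearest protein-coding gene 5' end was its own. The intron peak at +35.9 kb (chr11:98963494-98964006) stood at 6.48 and 6.26 in WT and at 5.87 and 5.63 in Hox13-/-. It was the largest decrease among the receptor genes, -0.63 ± 0.13 (SE, adjusted p = 3.12e-05), and held with any library left out, although it was called a peak in all 4 libraries. The nearest protein-coding gene 5' end was that of Gjd3, 19.3 kb away, although an internal annotated start of Rara lay nearer to this intron peak. Next to it, a peak at an internal annotated start at +32.6 kb stood at 5.43 and 5.48 in WT and at 5.04 and 4.98 in Hox13-/- (-0.44, adjusted p = 0.00665), and its call was lost without WT library 2 (0.0632) or Hox13-/- library 2 (0.0706). The 2 higher peaks had smaller differences. The intron peak at +3.9 kb stood at 4.16 and 4.09 in WT and at 4.65 and 4.43 in Hox13-/- (0.42, adjusted p = 0.0111), with 0.101 without WT library 2 and 0.201 without Hox13-/- library 1. The peak at +128.1 kb stood at 6.60 and 6.52 in WT and at 6.91 and 7.02 in Hox13-/- (0.40, adjusted p = 0.0122), with 0.091 without WT library 2 and 0.139 without Hox13-/- library 2. The strongest start peak, at +9.8 kb, overlapped between the genotypes at 6.58 and 6.26 in WT and 6.30 and 6.04 in Hox13-/- (-0.25, adjusted p = 0.164).

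Rarb, a receptor gene that is itself a known target of the signal, had 19 peaks, 1 lower and 3 higher. The intron peak at +85.3 kb (chr14:16733535-16734146), shown above, stood at 6.00 and 6.29 in WT and at 6.66 and 6.72 in Hox13-/-. It was the largest increase among the receptor genes, 0.54 ± 0.13 (SE, adjusted p = 0.000367), with 0.0605 without WT library 1. Upstream, 2 peaks little over 1 kb apart differed in opposite directions. The one at -140.3 kb stood at 4.16 and 4.18 in WT and at 4.45 and 4.70 in Hox13-/- (0.40, adjusted p = 0.0149), and its call was lost without WT library 1 (0.0949), WT library 2 (0.0717) or Hox13-/- library 2 (0.261). The one at -139.0 kb stood at 6.66 and 6.89 in WT and at 6.59 and 6.24 in Hox13-/- (-0.36, adjusted p = 0.03), and its call was lost without WT library 2 (0.294) or Hox13-/- library 2 (0.495), and after cyclic loess normalization (0.0542). The peak that holds the DR5 repeat, over the internal start at +243.6 kb (chr14:16575279-16575863), was not called. It stood at 6.57 and 6.41 in WT and at 6.25 and 6.30 in Hox13-/- (-0.22 ± 0.13, SE, adjusted p = 0.23), without overlap of the groups.

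Rarg, the third receptor gene, had 36 peaks, 4 lower and 1 higher. For 9 of the 36 the nearest protein-coding gene 5' end was its own. The lower peak at +121.3 kb (chr15:102135887-102136488), over the start of Spryd3, stood at 7.38 and 7.53 in WT and at 7.16 and 6.88 in Hox13-/- (-0.44 ± 0.13, SE, adjusted p = 0.00489). The lower peak at -100.9 kb, in the osteoblast factor gene Sp7, stood at 4.54 and 4.80 in WT and at 4.29 and 4.21 in Hox13-/- (-0.42 ± 0.13, SE, adjusted p = 0.00955). The higher peak at +159.2 kb stood at 4.62 and 4.63 in WT and at 5.18 and 4.91 in Hox13-/- (0.42 ± 0.13, SE, adjusted p = 0.011). None of these calls held with every library left out. The first had 0.0809 without WT library 2 and 0.223 without Hox13-/- library 2, and the second 0.231 and 0.0994 in the same cases. The higher peak had 0.0709 and 0.0595 without WT library 1 and 2, and 0.248 without Hox13-/- library 1. The start of Rarg, at -0.8 kb, stood at 6.10 and 6.05 in WT and at 6.14 and 6.12 in Hox13-/- (0.06, adjusted p = 0.797).

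Crabp2, which encodes the carrier protein, had 33 peaks, 2 lower and 1 higher. The higher peak at -183.4 kb (chr3:87765097-87765520) stood at 5.26 and 5.15 in WT and at 5.95 and 5.94 in Hox13-/-. It lay in Pear1, a gene nearer to it than Crabp2, was higher by 0.74 ± 0.13 (SE, adjusted p = 6.15e-07), held with any library left out, and was called a peak in the mutant libraries only. The peak at -192.5 kb, also in Pear1, stood at 5.40 and 5.47 in WT and at 4.99 and 4.99 in Hox13-/- (-0.45, adjusted p = 0.00618, and 0.0661 without WT library 2). The peak at +74.4 kb, in Hapln2, stood at 5.80 and 6.09 in WT and at 5.68 and 5.52 in Hox13-/- (-0.34, adjusted p = 0.0465). Its call was lost without WT library 2 (0.444), Hox13-/- library 1 (0.0629) or Hox13-/- library 2 (0.308), with robust empirical Bayes (0.0641), and among the upper 75% of peaks by signal (0.0505). The start of Crabp2 stood at 5.36 and 5.38 in WT and at 5.37 and 5.23 in Hox13-/- and overlapped (-0.07, adjusted p = 0.761).

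**Figure D4:**
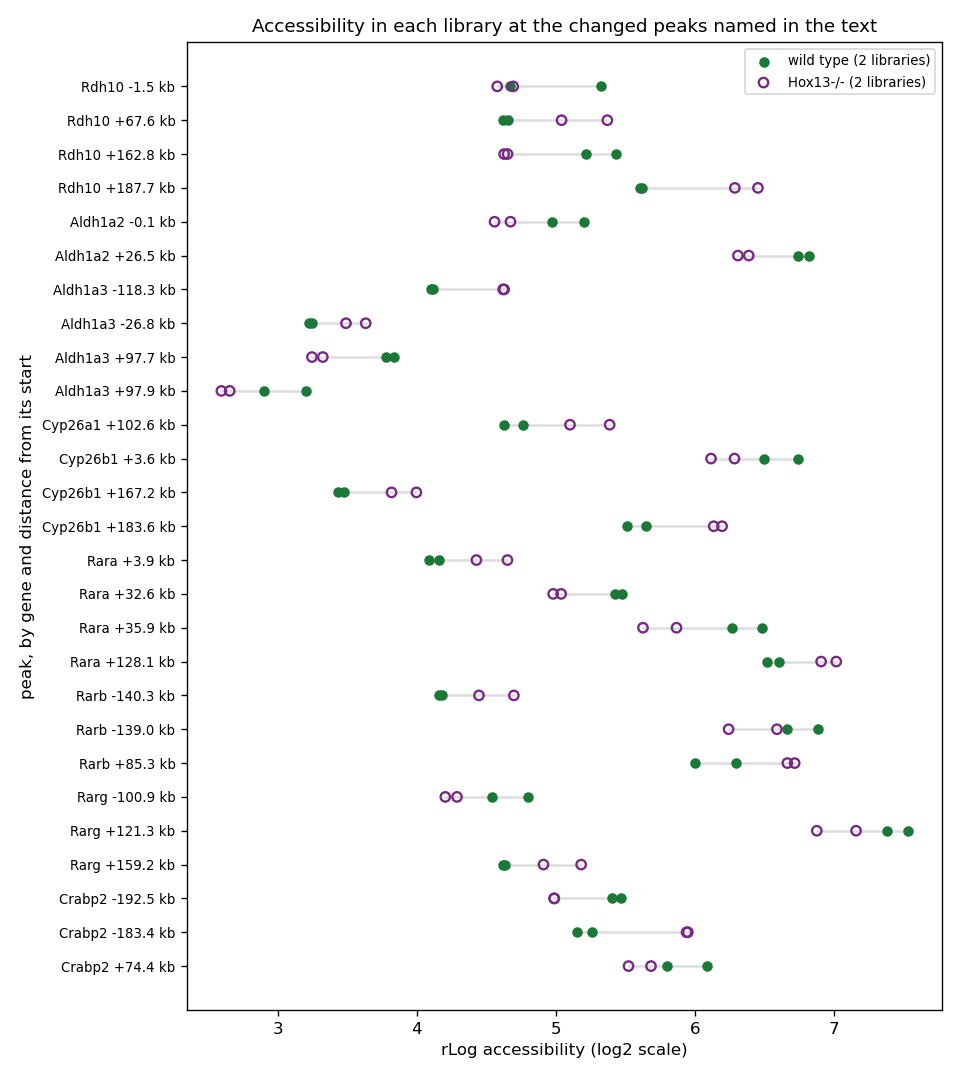
Accessibility (x axis, rLog, log2 scale) in each of the 4 libraries at 27 called peaks (rows, named by gene and distance from its start in kb), with WT as filled and Hox13-/- as open circles. The circles of the genotypes are apart at every row except Rdh10 -1.5 kb.

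Of the 28 called peaks that met the rule for named peaks, 7 kept an adjusted p under 0.05 in each of the 4 fits with 1 library left out, where 1 genotype has a single library and adds nothing to the estimate of the spread. They were 1 decrease and 1 increase of Rdh10, 1 of each of Aldh1a3, the decrease of Rara at +35.9 kb, the increase of Cyp26b1 at +183.6 kb and the increase of Crabp2 at -183.4 kb. The named peaks were picked for their large differences by gene and direction, so they do not stand for all called peaks. The share of all called peaks that kept their calls in such fits was not counted.

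**Figure D5:**
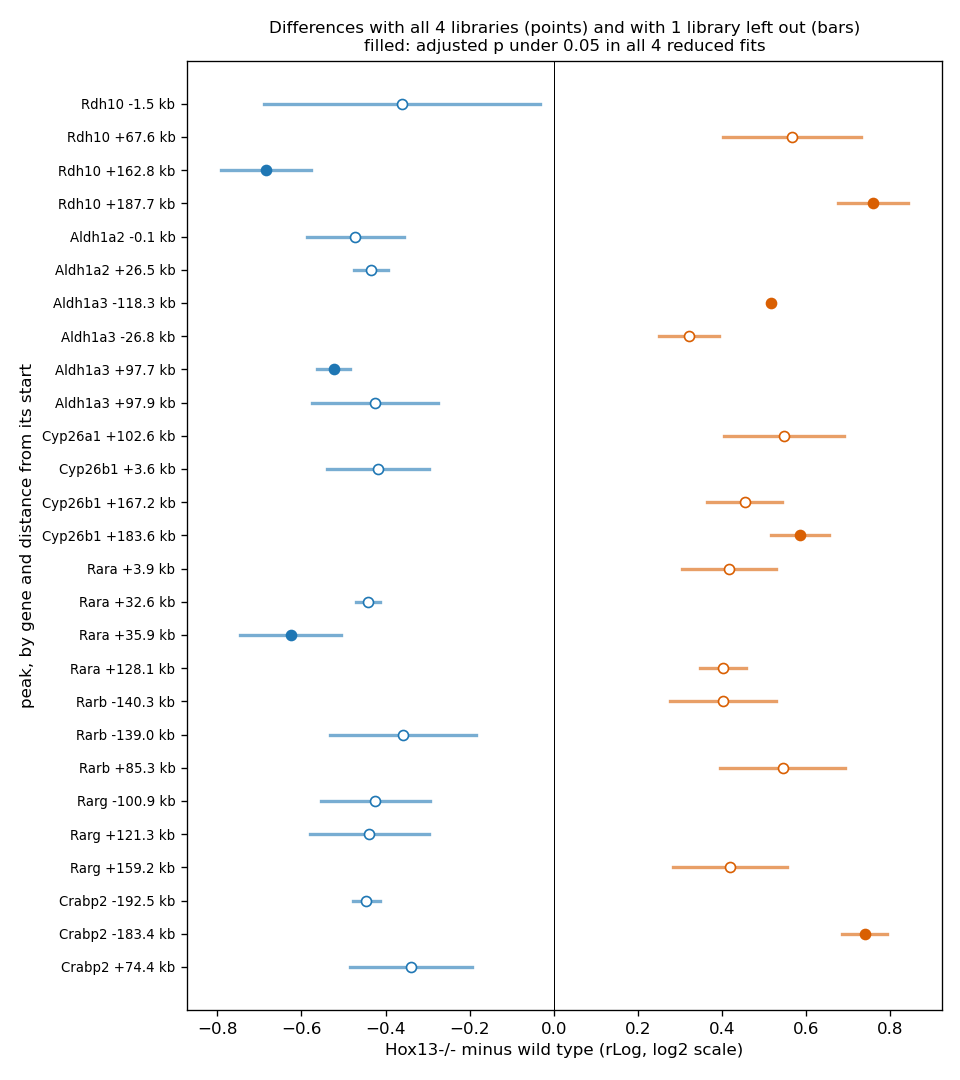
Differences (x axis, Hox13-/- minus wild type, rLog) with all 4 libraries (points) and their range with 1 library left out (bars) at the same 27 peaks (rows). The 7 filled points are those called in all 4 reduced fits, and the bar of Rdh10 -1.5 kb reaches -0.03.

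Peaks at the starts of the genes were counted separately. Of 20 peaks within 1 kb of an annotated start of the 10 genes, 2 were lower (10%) and 0 higher by limma (at an unadjusted p under 0.05, 5 and 0). Among all 17693 peaks near a protein-coding start, 8.67% were lower and 0.921% higher, whereas 8.16% of the 44261 other peaks were lower and 15.5% higher. The share of higher peaks was thus small at starts in general, and the 20 peaks were near the shares for starts. Of the 19 higher peaks of the pathway genes none lay within 1 kb of any protein-coding start, and of the 19 lower peaks 7 did.

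A peak within 200 kb is often nearer to another gene. For 91 of the 210 peaks the nearest protein-coding gene 5' end was that of a pathway gene. Of these 6 were lower (6.59%) and 14 higher (15.4%). The other 119 peaks had 13 lower (10.9%) and 5 higher (4.2%). Internal starts were not used for this split, and 3 of the 119 lay within 1 kb of an annotated start of their own pathway gene. Over all peaks 8.31% were lower and 11.4% higher, with 15.5% higher away from any annotated protein-coding start and 0.921% near one. The difference between the 91 and the 119 peaks was not tested. Among the 91 peaks the synthesis genes had 3 lower and 5 higher, the breakdown genes 2 and 5, the receptor genes 1 and 4, and the 4 peaks of Crabp2 were not called.

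Sequence content and the peak calls in single libraries were counted as well. A HOX13 heptamer was present in 14 of the 210 peaks (6.67%), against 7.54% of all peaks. It was present in 6 of the 19 lower peaks (31.6%), against 14.0% of all lower peaks, and in 1 of the 19 higher peaks (5.26%), against 12.8% of all higher peaks. These counts cover whole peaks, which differ in length. Within 200 bases around the midpoint, 4 of the 19 lower peaks held a heptamer (21.1%, all lower peaks 10.9%). Of the 19 higher peaks, 1 did (5.26%, all higher peaks 6.31%). The 6 lower peaks with a heptamer anywhere in the peak were 1 each from the windows of Rdh10, Aldh1a2, Aldh1a3, Rara, Rarb and Rarg. Those of Rara and Rarg lay over the starts of other genes, Cdc6 and Eif4b. Those of Rdh10 and Aldh1a3 lay inside Stau2 and Lrrk1. The GC content had a median of 60.0% in the lower and 47.2% in the higher peaks, whereas over all peaks the medians were 48.6% for lower and 47.8% for higher. The pathway peaks that were not called had a median of 56.1% (53.3% for all peaks not called), and the 210 together 55.8% (all peaks 52.1%). Of the higher peaks 11 of 19 (57.9%) had been called in both mutant libraries and in neither WT library, and 48.7% of all higher peaks had this pattern. Of the lower peaks 5 of 19 (26.3%) had been called in both WT libraries only, against 24.3% of all lower peaks. A direct repeat of half-sites with a spacer of 1, 2 or 5 bases was found in 1 of the 210 peaks, that of Rarb, and in 0.31% of all peaks. These are counts of few peaks and were not tested.

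A further 18 genes of vitamin A transport, conversion and receptor partnering had 297 distinct peaks, 20 lower (6.73%) and 22 higher (7.41%), both under the shares of all peaks. Dhrs3, whose product turns retinaldehyde back into retinol, had 3 lower and 6 higher peaks of 21. The higher ones included +119.8 kb (0.60, adjusted p = 9.63e-05) and +57.0 kb (0.50, adjusted p = 0.00159), and the lower ones -30.9 kb (-0.56, adjusted p = 0.000369). Nrip1, a corepressor gene, had the largest increase of this list, in its intron at +15.2 kb (0.92, adjusted p = 4.57e-11). The largest decrease lay at -19.9 kb of Adh1, a retinol-oxidising dehydrogenase gene (-0.82, adjusted p = 2.46e-08). Among the RXR partners, Rxra had 1 lower and 2 higher of 27 peaks, Rxrb 1 lower of 31, and Rxrg 1 and 1 of 13. How these calls fared with libraries left out was not examined.

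The libraries carried open chromatin at the starts of limb genes in both genotypes. All 5 limb mesenchyme genes looked at and all 4 distal genes had a peak at the start, with 1 call, Twist1 (-0.40, adjusted p = 0.0143). The start of Hoxa13 stood at 5.71 and 5.95 in WT and at 5.66 and 5.84 in Hox13-/-, and that of Hoxd13 at 4.35 and 4.34 and at 3.99 and 4.17. Neither was called, and an accessible start does not check null alleles of this kind. Peaks at the start were present for 1 of 5 ectoderm, 2 of 5 endothelium, 2 of 5 muscle precursor and 0 of 5 blood genes, none called between genotypes. The blood gene Gata1 lies on chromosome X, and the deposited peaks cover autosomes only, so it could have no peak. Of the endothelium genes, Kdr stood at 6.67 and 6.71 in WT and at 6.75 and 6.62 in Hox13-/-. Tek stood at 5.82 and 5.59 in WT and at 5.81 and 5.56 in Hox13-/-. Of the muscle genes, Met stood at 4.59 and 4.49 in WT and at 4.51 and 4.25 in Hox13-/-. Myod1 stood at 4.12 and 4.30 in WT and at 4.31 and 4.20 in Hox13-/-. These few starts do not measure the shares of cell types. The part of cell composition in the results was not tested.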

How the data were processed

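ATAC-seq peaks of 2 WT and 2 Hox13-/- distal forelimb libraries were analysed, grouped by their labels. According to the submitters' processing notes, the authors used Bowtie2 2.3.1, SAMtools 1.4.1, MACS2 2.1.1.20160309, HOMER 4.9.1 and DESeq2 on mm10, calling peaks in each library and merging them. The authors deposited rLog values on a log2 scale, scaled for library size and shrunk towards each peak's mean, so differences of weak peaks are understated. No read counts were used, and how many reads lie behind a value is unknown. The table also holds the authors' own fold changes and p-values, which were not used. Duplicate removal and Tn5 offset are not given in the sources used here. A further 2 proximal libraries were not analysed here.

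Differences were fitted over all 61954 peaks (19 autosomes) with limma 3.58.1 in R 4.3.3. The fit had 1 genotype term, a variance trend, two-sided tests and Benjamini-Hochberg adjustment. The procedure was tested on simulated normal values drawn with the fitted spread, with planted differences larger than most called around these genes. That test takes the fitted spread as given and cannot check it. Only 2 residual degrees of freedom per peak exist, the estimated prior degrees of freedom were infinite, and each p therefore rests on a spread shared by all peaks. Relabelling 2 against 2 libraries cannot give a two-sided p under 0.333. Gene starts are 5' ends of GENCODE M21 basic genes, and promoters are from RefSeq. Motifs were matched exactly with Python 3.11.15, pandas 2.3.3 and pysam 0.24.0, and figures were drawn with matplotlib 3.10.9. The peaks named are the strongest at each gene's start, up to 2 called peaks per gene and direction with the largest differences, and the 5 largest of all in each direction. Results for some items are not reported here. Other peaks named for the 18 further genes were chosen after their values were seen. The members and lists were chosen with earlier results of these data known. Alternatives were other scalings, limma without the trend or with robust fitting, a filter on low signal, other thresholds and windows, the replicate block, and leaving out each library.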

Additional observations from a re-analysis of the deposited data

How the results depend on the processing

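No called difference at a named peak changed sign under the alternatives run, and 7 of the 28 kept their calls in every refit that held them (10 or 11, with other scalings or fits, the filter, the block or fewer libraries). Centring, quantile and cyclic loess scaling, the fit without trend, robust fitting and counting from any annotated start left every count by role within 1.5 times, except 1 lower peak of Crabp2 with robust fitting. Keeping the upper 75% of peaks by signal left 3 lower synthesis, 1 lower Crabp2 and 2 higher breakdown peaks, with 9.32% lower and 10.6% higher in all (all peaks 9.51% and 14.3%). With a fold beyond 1.5 there were 2 lower peaks in all (1 synthesis, 0 breakdown, 1 receptor) and 2 higher (1 synthesis, 0 breakdown, 0 receptor), and with a fold beyond 2 there were 0 in every role. With an adjusted p under 0.01 there were 5 lower receptor peaks and 10 higher peaks in all, 3 of breakdown and 1 of receptor genes (6.19% lower and 4.76% higher in all, all peaks 4.38% and 7.6%). Within 100 kb there were 10 lower peaks (1 breakdown, 3 receptor) and 6 higher (2 synthesis, 1 breakdown, 3 receptor) of 113 (8.85% and 5.31%, all peaks 8.31% and 11.4%). Peaks nearest to a pathway gene 5' end alone gave 6 lower (6.59%) and 14 higher (15.4%) of 91, against 8.31% and 11.4% of all peaks. The lower ones included 3 of synthesis and 1 of receptor genes. With 1 library left out, lower peaks numbered 9 to 13 in all, 3 to 6 for synthesis, 0 to 2 for breakdown and 3 to 6 for receptors, and higher peaks 12 to 13, 4 to 6, 2 to 4 and 3 to 3. Narrower windows hold fewer peaks and stricter thresholds call fewer by construction, and the cause of the other changes was not tested. With the replicate number as a block there were 19 lower (9.05%, all peaks 8.02%) and 20 higher peaks (9.52%, all peaks 11.3%), and no named call changed. The labels do not say whether same-numbered libraries share a litter or day. Their deviations from the genotype means had a correlation of -0.01 over all peaks. A single correlation over all peaks cannot show whether a shared batch acted on some of them. The depth of a peak is unknown, and 2 libraries per genotype limit the precision.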

Other observations

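Genes known to respond to retinoic acid gave values of the same kind. The 6 genes Meis1, Meis2, Nr2f1, Nr2f2, Tgm2 and Stra8 had 67 distinct peaks, 2 lower (2.99%) and 7 higher (10.4%) in Hox13-/-, against 8.31% and 11.4% of all peaks. Meis1, a homeobox gene of the proximal limb, had 3 higher peaks and 1 lower of 10. Its intron peak at +102.0 kb stood at 5.40 and 5.86 in WT and at 6.33 and 6.29 in Hox13-/-, higher by 0.68 (adjusted p = 4.22e-06). Meis2 had 2 higher peaks of 8, both in introns, at +168.1 kb (0.50, adjusted p = 0.00123) and +64.4 kb (0.49, adjusted p = 0.00198). Tgm2 had 2 higher and 1 lower of 13. No peak of Nr2f1, Nr2f2 or Stra8 was called by limma, and their differences lay between -0.30 and 0.28. The peaks named here were chosen after their values were seen.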
